A study of Homo sapiens with 7 samples.

Results

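The 50 genes described here encode the machinery of the G2/M transition and of mitosis, and 47 of them were measured among 17958 genes in SKOV3 cells, a line from a human ovarian carcinoma. A gene was taken as measured where a transcript cluster, the group of probes that reads 1 transcript, carried exactly 1 symbol in the platform annotation and that symbol, updated through its Entrez identifier, was the member's. Of several such clusters the brightest, by its mean signal on 7 arrays, was kept. BUB1B, KIF20A and PTTG1 were not measured, since each was found only on a cluster with several symbols.

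RNA from 7 stable lentiviral clones was measured on Human Gene 1.1 ST arrays from Affymetrix, 1 array for each clone. The clones were 2 scramble controls, 3 labelled CtBP1 knockdown and 2 labelled CtBP2 knockdown. All 7, controls included, had been infected with lentivirus and were kept in medium with puromycin, and the labels state that the knockdowns were tested by western blot. The study set out to find genes that CtBP1 and CtBP2, a pair of related transcriptional corepressors, regulate differently. The labels name clones but not whether they were cultured separately. The spread behind each p-value is that among these 7 arrays, in which differences between clones and technical ones cannot be told apart. The deposited unit is a log2 signal, on which a difference of 1 is a doubling, and levels of different genes are not compared because their probes differ.

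Entry into mitosis is driven by CDK1 bound to cyclins A and B, whose inhibitory phosphates are removed by the CDC25 phosphatases. Aurora and Polo-like kinases, kinetochore proteins and spindle motors then align the chromosomes, the spindle checkpoint holds back the anaphase-promoting complex until every kinetochore is attached, and the central spindle directs cytokinesis. Most of the genes are transcribed in G2 by complexes of MuvB with B-MYB or FOXM1, so their summed mRNA follows the share of dividing cells. In bulk RNA, fewer cells in G2 or mitosis and less RNA of these genes in each cell cannot be told apart.

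Scramble control 1 stood apart from the other 6 arrays, with Pearson correlations over all genes of 0.926 to 0.941 with them. Its signal was also narrower over all genes, with an interquartile range of 2.20 log2 units against 2.85 to 3.15 on the others. CTBP2 read 5.70 and 6.14 on the scramble arrays, 6.25, 6.31 and 6.27 on the CtBP1 arrays and 4.64 and 4.22 on the CtBP2 arrays, and the CtBP2 arrays lay below all others (-1.49 ± 0.21 against scramble in log2 units, adjusted p = 0.18 by limma, SE after the sign here and throughout). CTBP1 read 5.69 and 6.37 on the scramble arrays, 5.11, 6.13 and 6.13 on the CtBP1 arrays and 6.81 and 6.32 on the CtBP2 arrays. Array 1 labelled CtBP1 knockdown lay below both controls, while arrays 2 and 3 lay between them (-0.25 ± 0.39 for the group, adjusted p = 0.849), so these are called the CtBP1 arrays only as labelled. The median of 12 epithelial and ovarian carcinoma markers lay between 5.57 and 6.56 on the arrays. ERBB2, with the highest mean of them, read between 8.52 and 9.58, and EPCAM between 4.59 and 6.53. The medians of 7 leukocyte, 7 fibroblast and 6 endothelial markers were no higher than 2.34. Of the leukocyte markers, PTPRC lay between 1.5 and 1.73, and CD68, also found in tumour cells, had a mean of 6.61.

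Promoter sequence was examined because members transcribed together in G2 are known for shared elements. RefSeq windows of 300 bases on GRCh38.p14, from 250 bases before the transcript start to 50 after it, were found for 42 of the 50 members. TTK, UBE2C, RACGAP1, AURKA, FOXM1, TPX2, BUB3 and BIRC5 had no matched window. Motifs were searched on both strands, and matches were counted whether or not they shared bases. TTTGAA is the core of the cell cycle homology region that MuvB complexes bind. CCAAT is the box of the factor NF-Y, and TTCCCGCC is the core of an E2F site. The windows printed are those with the most matches of TTTGAA and CCAAT among the members whose values are given array by array, with CKS2 shown as the brightest of 5 genes tied at 4 matches (the others are CDC20, INCENP, MKI67 and NUSAP1) and with capitals marking matches of TTTGAA and of the NF-Y box. A match on the other strand reads as the reverse complement in these lines, ATTGG for the NF-Y box. They lie at chr1:154974431-154974730 (plus strand) for CKS1B, chr17:40417847-40418146 (minus strand) for TOP2A, chr10:60778228-60778527 (plus strand) for 1 of the 2 windows of CDK1, chr1:214602945-214603244 (plus strand) for CENPF and chr9:89310945-89311244 (plus strand) for CKS2, each written 5′ to 3′ on the strand of its gene.
CKS1B: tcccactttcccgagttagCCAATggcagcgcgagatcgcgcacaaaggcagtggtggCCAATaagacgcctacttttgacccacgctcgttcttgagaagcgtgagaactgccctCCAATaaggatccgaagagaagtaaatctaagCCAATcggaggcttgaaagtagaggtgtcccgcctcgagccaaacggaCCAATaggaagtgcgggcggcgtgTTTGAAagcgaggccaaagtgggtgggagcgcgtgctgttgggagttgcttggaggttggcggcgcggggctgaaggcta
TOP2A: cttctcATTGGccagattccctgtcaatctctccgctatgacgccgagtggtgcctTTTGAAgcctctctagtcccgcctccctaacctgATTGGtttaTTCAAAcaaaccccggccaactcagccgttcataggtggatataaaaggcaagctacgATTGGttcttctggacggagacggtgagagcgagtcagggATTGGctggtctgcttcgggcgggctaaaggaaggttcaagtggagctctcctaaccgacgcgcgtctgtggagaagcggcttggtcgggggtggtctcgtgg
CDK1: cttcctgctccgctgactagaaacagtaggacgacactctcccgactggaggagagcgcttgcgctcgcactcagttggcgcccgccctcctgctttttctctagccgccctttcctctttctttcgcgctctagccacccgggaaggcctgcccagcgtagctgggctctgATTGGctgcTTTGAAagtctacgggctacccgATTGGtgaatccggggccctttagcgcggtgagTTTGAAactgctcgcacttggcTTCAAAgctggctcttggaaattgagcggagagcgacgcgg
CENPF: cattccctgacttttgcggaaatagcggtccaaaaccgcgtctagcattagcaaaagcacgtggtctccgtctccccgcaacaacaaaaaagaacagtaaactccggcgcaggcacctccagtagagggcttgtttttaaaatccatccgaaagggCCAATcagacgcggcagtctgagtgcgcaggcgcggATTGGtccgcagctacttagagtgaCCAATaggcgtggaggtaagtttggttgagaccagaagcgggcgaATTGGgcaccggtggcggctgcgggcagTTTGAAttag
CKS2: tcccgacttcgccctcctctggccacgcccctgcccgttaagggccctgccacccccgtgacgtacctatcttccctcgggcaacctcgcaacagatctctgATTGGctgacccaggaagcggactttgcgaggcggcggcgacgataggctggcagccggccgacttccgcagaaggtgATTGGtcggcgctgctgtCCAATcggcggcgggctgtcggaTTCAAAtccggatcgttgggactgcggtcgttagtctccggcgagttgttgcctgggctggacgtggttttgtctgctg

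CKS1B, which encodes a small protein that binds CDK1, held 5 CCAAT boxes and a single TTTGAA whose first base lies at position -30, counted from the transcript start. The TTTGAA word of its paralogue CKS2, on the other strand, begins at position -29. CDK1 held 3 TTTGAA words, at -69, -13 and 10, and TOP2A, the topoisomerase that untangles sister chromatids, held TTTGAA words at -194 and -151 with 4 CCAAT boxes. CENPF, a kinetochore protein, held its TTTGAA word at 41, after the start.

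Over the members with a window, 29 of 42 (69%) held TTTGAA, against 18.2% of the 27305 genes in the table and 5.56% of 36 DNA replication genes. CCAAT was found for 35 members (83.3%), against 39.7% of all genes and 55.6% of the DNA replication genes. It occurred at least 2 times in a window for 25 members (59.5%), against 12.9% and 36.1%. Both words occurred for 25 members (59.5%) and for 8.37% of all genes. TTCCCGCC was found for 3 members (7.14%), against 3.79% of all genes and 27.8% of the DNA replication genes. A match is a description of letters, not of a bound site. The 28 measured members with TTTGAA and the 11 without it had median differences between scramble controls 1 and 2 of -2.15 and -1.79, between the CtBP1 arrays and scramble of 0.78 and 0.97, between the CtBP2 arrays and scramble of 0.94 and 1.3, and between the CtBP2 and the CtBP1 arrays of 0.21 and 0.12.

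**Figure D1:**
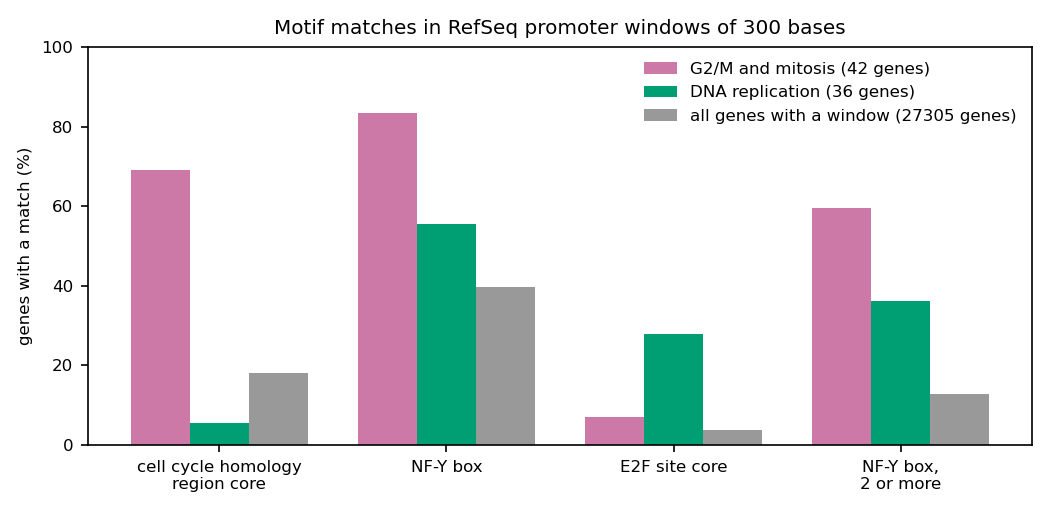
Share of genes (percent, vertical axis) with each word in a 300-base RefSeq promoter window, for 42 G2/M and mitosis genes, 36 DNA replication genes and all 27305 genes of the table. TTTGAA, the cell cycle homology region core, was held by 69% of the mitosis genes, 5.56% of the replication genes and 18.2% of all genes. For the E2F core these shares were 7.14%, 27.8% and 3.79%.

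In the median of the members, the 2 control arrays differed from each other by more than either knockdown group differed from scramble control 2. Scramble control 1 read below scramble control 2 for 46 of 47 members, by a median of -2.09, while the median over all genes was -0.02. AURKA was the extreme, at 3.29 against 7.14, a 14.4-fold difference, and CKS1B was the single member higher on scramble control 1, at 9.64 against 9.13. Scramble control 1 was more than 2-fold below scramble control 2 for 39 members (83%), against 13% of all genes, and more than 4-fold below for 29 (61.7%), against 1.94%, and it was the lowest of the 7 arrays for 45 (95.7%), against 32.3%. After renewed quantile normalization, which gives every array the same distribution of signals, the members' median was -1.85, with 45 of 47 below scramble control 2, and 37 members (78.7%) were more than 2-fold below, against 9.98% of all genes, whose median was -0.14. With 1 array on each side this has no replicate check and was not tested. The part of the narrower signal of scramble control 1 in these values was not tested further.

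Other genes of like signal differed less between the controls. Of the members, 23 had a mean over the other 6 arrays between 5.74 and 7.34, the middle of the members' range, and their median difference between the controls was -2.72. All 2236 genes with a mean in that range had a median of -0.77, and 37.5% of them were more than 2-fold lower on scramble control 1, against 95.7% of those members. The role groups differed in size: the median was -2.61 for TOP2A and MKI67, -2.55 for the 8 spindle motor and microtubule genes and -2.50 for FOXM1 and MYBL2. It was -1.20 for the 9 cyclin, CDK1, CDC25 and CKS genes and -1.05 for 41 DNA replication genes outside the set.

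**Figure D2:**
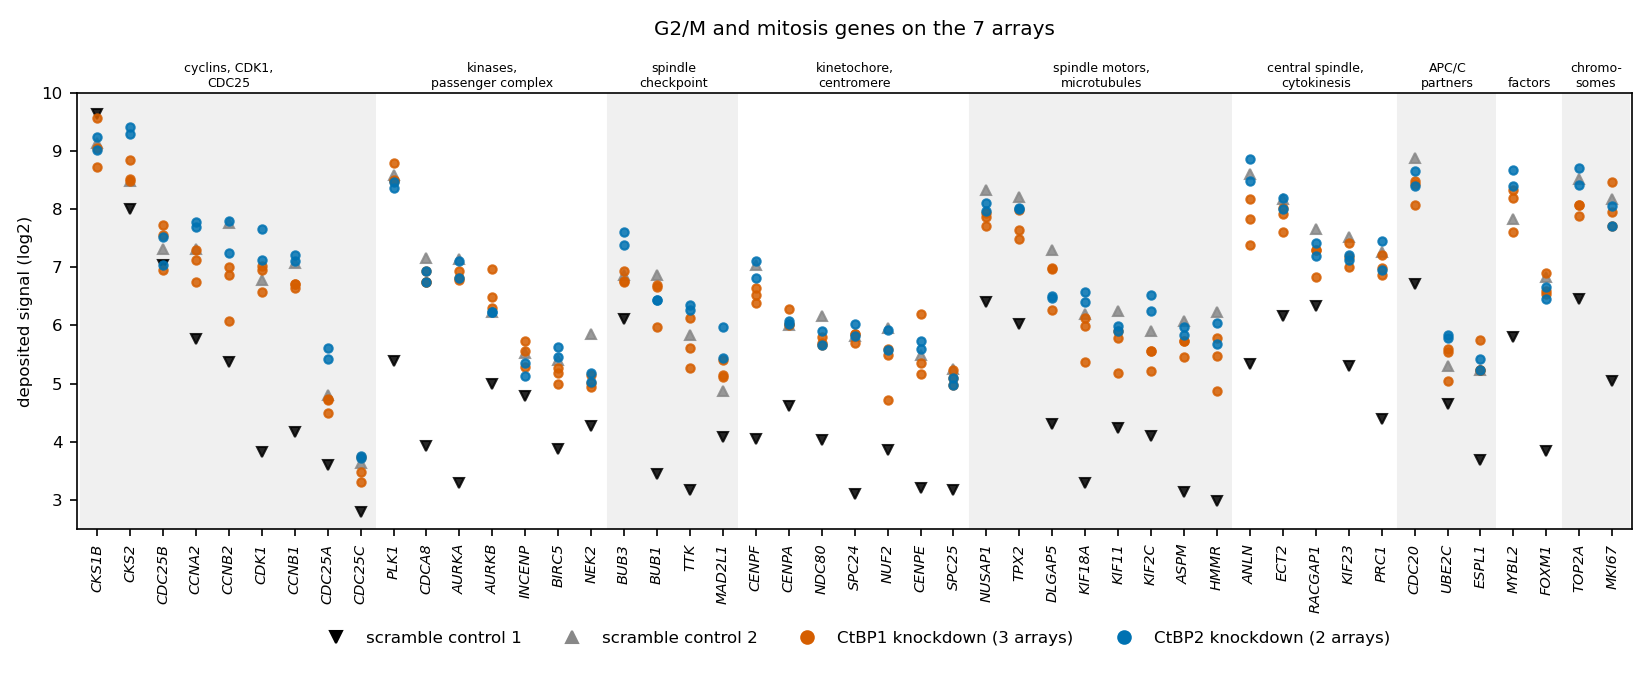
Deposited log2 signal (vertical axis) of the 47 measured genes on each of the 7 arrays, grouped by role and ordered by mean signal within a role, with 1 point for each array. Scramble control 1, the black triangle, is the lowest point for 45 genes, while CKS1B is highest there at 9.64.

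Against scramble, none of the 47 members passed the test on the arrays labelled CtBP1 knockdown. By limma over all 7 arrays 0 members were called at an adjusted p under 0.05, and 0 of 17958 genes (0%). The smallest adjusted p of a member was 0.734. At an unadjusted p under 0.05, AURKB and MAD2L1 were higher and no member was lower, a share to be read against 2.87% of all genes. The fitted difference was above 0 for 45 members, against 49.2% of all genes, with a median of 0.76 and a range from -0.27 to 1.63. NEK2 and CKS1B lay below 0. All 3 CtBP1 arrays lay above both controls for AURKB, CKS2 and MAD2L1, or 6.38% of members against 6.76% of all genes, and no member had them below both, where 7.59% of all genes did.

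The sign of that median differed between the controls. Without scramble control 1, the median member difference was -0.25, 10 of 47 members were above 0, where 45.2% of all genes were, and 0 members passed with limma. Then 28 members had all 3 CtBP1 arrays below the remaining control, where 24.7% of all genes did, and 8 were lower at an unadjusted p under 0.05, where 5.42% of all genes were. Without scramble control 2, limma called 38 of 47 members higher, where 10.8% of all genes were, and the median was 1.68. The groups then did not overlap for 46 members, where 71.4% of all genes were likewise apart. A lone control has no spread of its own in such a fit and takes that of the knockdown groups.

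The CtBP2 arrays also held no member that passed the test against scramble, with 0 of 47 called by limma and 1 of 17958 genes (0.00557%), the small nuclear RNA gene RNU4-1. The smallest adjusted p among the members was 0.248, that of CKS2, which was 1.11 ± 0.21 higher. At an unadjusted p under 0.05, 8 members were higher (CKS2, BUB3, MAD2L1, CDC25A, UBE2C, MYBL2, KIF2C and CCNA2) and none lower, where 7.19% of all genes were higher. The difference was above 0 for 46 members, where 47.3% of all genes were, and the median was 1.08. Both CtBP2 arrays lay above both controls for 17 members, or 36.2%, where 19.3% of all genes did.

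This comparison uses the same scramble arrays as the one before, so the members' likeness between them is not a separate result. Without scramble control 1 the median was -0.07, with 20 of 47 members (42.6%) above 0, where 42.6% of all genes were, and 0 called. CtBP2 arrays then lay above the remaining control for 17 members and below it for 20, where 32.1% and 41.8% of all genes did. Without scramble control 2, limma called 43 members, where 22% of all genes were called, and the median was 1.97. The groups then did not overlap for 47 members, where 87.6% of all genes were likewise apart.

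**Figure D3:**
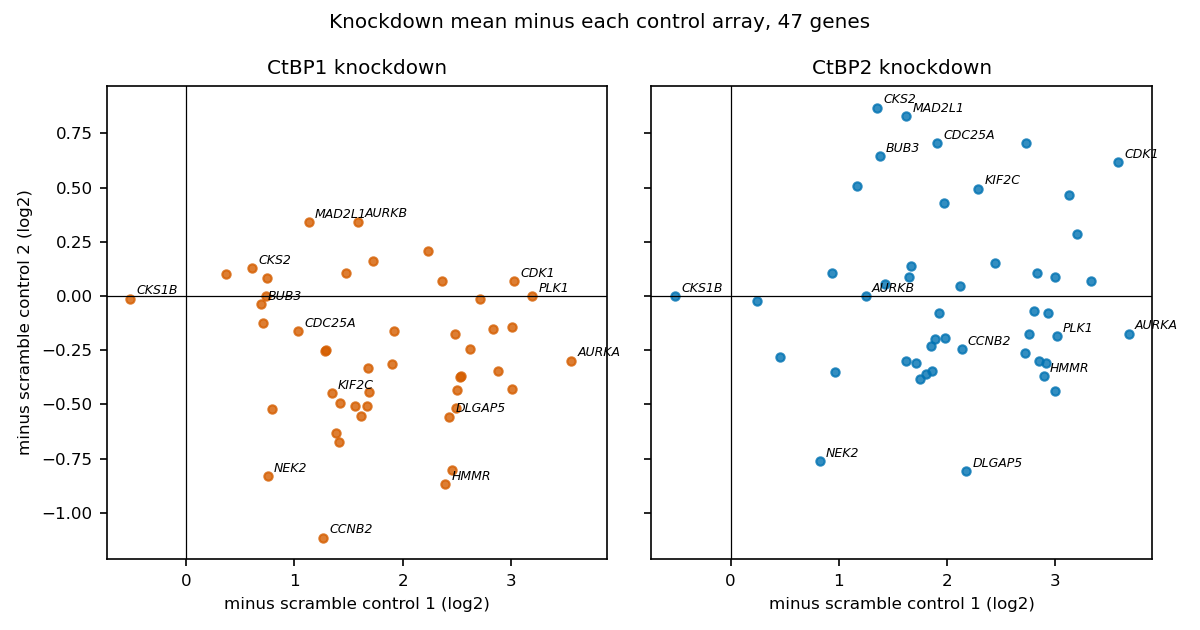
Mean of the CtBP1 arrays (left) and of the CtBP2 arrays (right) minus scramble control 1 (horizontal axis, log2) and minus scramble control 2 (vertical axis, log2) for each of 47 genes. Against control 1 nearly all points lie above 0, with CKS1B the exception in both panels, while against control 2 they fall on both sides, with 10 genes above 0 on the left and 20 on the right.

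The knockdown groups were also set directly against each other. No scramble array enters the difference, but the spread between the 2 scramble arrays enters its SE and interval in the fit of all 7 arrays. The CtBP2 arrays were higher for 35 of 47 members, where 46.8% of all genes were, with a median of 0.23 and a median over all genes of -0.01. No member passed, with 0 called by limma (0% of all genes) and a smallest adjusted p of 0.419. At an unadjusted p under 0.05, CKS2, BUB3 and CDC25A were higher and none lower, where 5.31% of all genes were higher. Both CtBP2 arrays lay above all 3 CtBP1 arrays for 21 members (44.7%), where 15.8% of all genes did, and below all 3 for AURKB and PLK1, where 16.2% of all genes did. With the 5 knockdown arrays fitted alone, the members' median SE was 0.16 in place of 0.58, 11 members were higher at an unadjusted p under 0.05, where 9.28% of all genes were, and none lower, where 4.93% were. Again none was called, and the smallest adjusted p by limma was 0.094, that of CDC25A, followed by KIF2C (0.118), BUB3 (0.12), CCNB1 (0.128) and CKS2 (0.133). After renewed quantile normalization 28 members were higher, with a median of 0.09. With array weights, limma called CKS2 alone among the members, at an adjusted p of 0.0497 with 272 genes called in all.

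**Figure D4:**
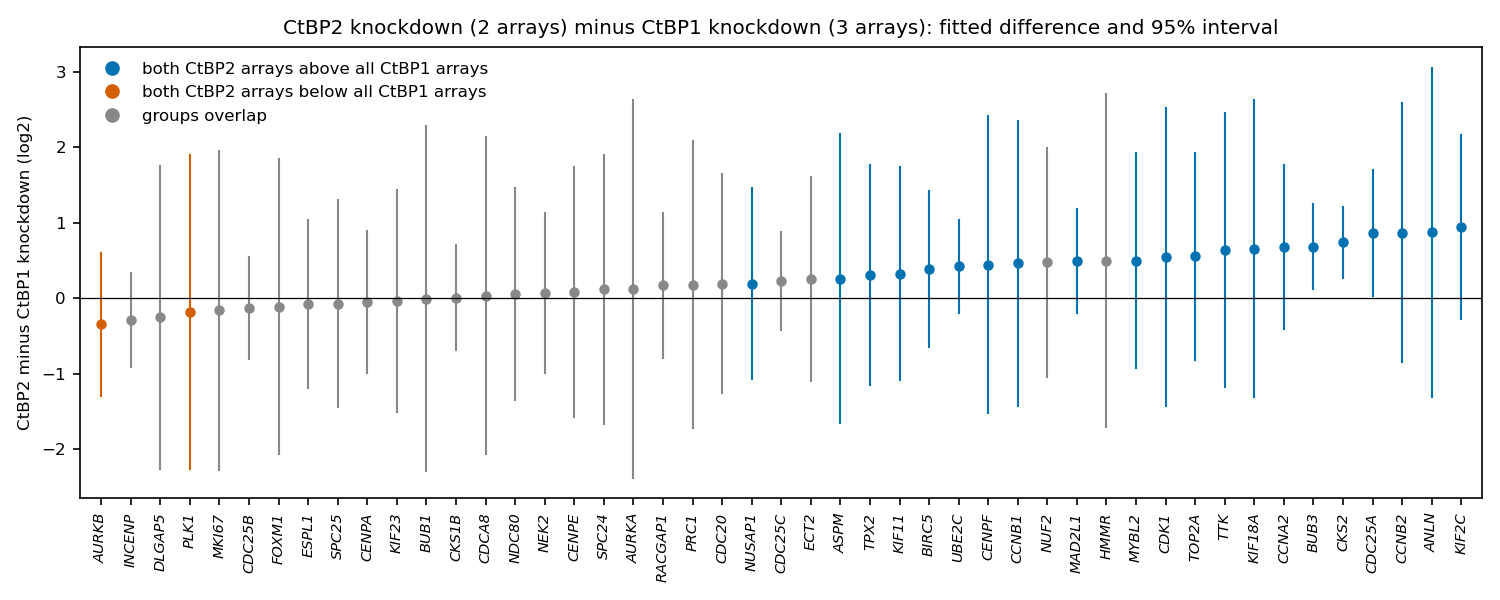
Fitted difference of the CtBP2 arrays minus the CtBP1 arrays (vertical axis, log2) for 47 genes in order of the difference, with 95% confidence intervals from limma. KIF2C stands highest at 0.94, the intervals of CKS2, BUB3 and CDC25A lie above 0, and colours mark the 21 genes with both CtBP2 arrays above, and the 2 with both below, all 3 CtBP1 arrays.

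FOXM1 and MYBL2 encode the transcription factors that switch on much of the set. FOXM1 read 3.85 and 6.83 on scramble controls 1 and 2, 6.54, 6.59 and 6.90 on the CtBP1 arrays and 6.46 and 6.67 on the CtBP2 arrays. Scramble control 1 was low, while scramble control 2 lay among the CtBP1 arrays and above both CtBP2 arrays. The knockdown groups overlapped, with a direct difference of -0.11 ± 0.80 between them. MYBL2, the gene of B-MYB, read 5.81 and 7.83 on scramble controls 1 and 2, 7.60, 8.19 and 8.33 on the CtBP1 arrays and 8.68 and 8.40 on the CtBP2 arrays. Both CtBP2 arrays lay above all other arrays, the difference from scramble was 1.72 ± 0.64 (adjusted p = 0.464), and without scramble control 1 it was 0.71 ± 0.34 (adjusted p = 0.567).

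Of the cyclins and their kinase, CCNB1 and CDK1 read highest on the CtBP2 arrays. CCNB1, the gene of cyclin B1, read 4.17 and 7.07 on scramble controls 1 and 2, 6.65, 6.72 and 6.72 on the CtBP1 arrays and 7.21 and 7.11 on the CtBP2 arrays. The CtBP1 arrays lay between the controls and the CtBP2 arrays above both, at 1.08 ± 0.77 and 1.54 ± 0.85 against scramble. CDK1, the mitotic kinase itself, read 3.82 and 6.78 on scramble controls 1 and 2, 6.57, 7.02 and 6.95 on the CtBP1 arrays and 7.13 and 7.66 on the CtBP2 arrays. Its CtBP2 arrays lay above all others, and its difference from scramble of 2.10 ± 0.88 was the largest of the members in that comparison, with an adjusted p of 0.497. CCNA2, which encodes the cyclin A of S and G2 phase, was 1.20 ± 0.49 higher on the CtBP2 arrays than in scramble and 0.68 ± 0.44 higher than on the CtBP1 arrays. CCNB2, the second B-type cyclin, had its lowest knockdown value on CtBP1 array 2 (6.08) and a direct difference of 0.87 ± 0.70.

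The 3 CDC25 phosphatase genes differed in how far their arrays lay apart. CDC25A, which acts at both the G1/S and the G2/M transitions, read 3.61 and 4.81 on scramble controls 1 and 2, 4.73, 4.49 and 4.72 on the CtBP1 arrays and 5.61 and 5.42 on the CtBP2 arrays. Its CtBP1 arrays lay between the controls and its CtBP2 arrays above all 5 others, with differences of 1.31 ± 0.37 against scramble (adjusted p = 0.39) and 0.87 ± 0.34 against the CtBP1 arrays (adjusted p = 0.617). CDC25B, which starts CDK1 activation at the centrosome, and CDC25C, which amplifies it, had direct differences of -0.12 ± 0.28 and 0.23 ± 0.27.

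The paralogues CKS1B and CKS2, which encode the small subunits of CDK complexes, went different ways on the control arrays. CKS2 read 8.0 and 8.48 on scramble controls 1 and 2, 8.51, 8.85 and 8.49 on the CtBP1 arrays and 9.29 and 9.42 on the CtBP2 arrays. The CtBP2 arrays were above all others, and the CtBP1 arrays lay above both controls, the lowest of them by less than 0.01 on the deposited values. CKS2 had the smallest p of any member in the direct comparison, 0.74 ± 0.19 with a 95% interval of 0.26 to 1.22 and an adjusted p of 0.419. CKS1B read 9.64 and 9.13 on scramble controls 1 and 2, 8.72, 9.57 and 9.06 on the CtBP1 arrays and 9.02 and 9.24 on the CtBP2 arrays. Scramble control 1 was the highest array, and the groups overlapped, at -0.27 ± 0.29 and -0.26 ± 0.31 against scramble. CKS1B has 7 pseudogenes named after it in RefSeq and 3 clusters on the array, all higher on scramble control 1 than on scramble control 2, by 0.51, 0.53 and 0.50. Its signal may therefore hold that of near-identical copies, and it is reported as uncertain.

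Of the mitotic kinases, PLK1 and AURKA had some of the widest gaps between the controls. PLK1, the Polo-like kinase of mitotic entry and exit, read 5.39 and 8.59 on scramble controls 1 and 2, 8.50, 8.48 and 8.79 on the CtBP1 arrays and 8.46 and 8.36 on the CtBP2 arrays. Apart from scramble control 1 all arrays lay between 8.36 and 8.79, and both CtBP2 arrays were below the 3 CtBP1 arrays, by -0.18 ± 0.85, with an interval of -2.27 to 1.90, and an SE of 0.13 with the knockdown arrays fitted alone. AURKA, the centrosomal Aurora kinase, read 3.29 and 7.14 on scramble controls 1 and 2, 6.93, 6.78 and 6.81 on the CtBP1 arrays and 6.82 and 7.11 on the CtBP2 arrays. Scramble control 2 lay above every knockdown array. The knockdown groups overlapped and differed by 0.12 ± 1.02, with an interval of -2.37 to 2.62. NEK2, a kinase of centrosome separation, was the 1 member of this role below 0 against scramble on the CtBP1 arrays (-0.04 ± 0.43), and without scramble control 1 it was lower by -0.83 ± 0.14 on the CtBP1 arrays and -0.76 ± 0.14 on the CtBP2 arrays, with adjusted p of 0.401 and 0.241.

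The chromosomal passenger complex joins the kinase AURKB to INCENP, BIRC5 (survivin) and CDCA8 (borealin) at the inner centromere. AURKB read 5.0 and 6.24 on scramble controls 1 and 2, 6.30, 6.97 and 6.49 on the CtBP1 arrays and 6.24 and 6.24 on the CtBP2 arrays. All 3 CtBP1 arrays lay above all other arrays, with 0.97 ± 0.39 against scramble (adjusted p = 0.734), while scramble control 2 and both CtBP2 arrays held an identical deposited value, a tie that can understate the spread. INCENP, the scaffold, read 4.78 and 5.52 on scramble controls 1 and 2, 5.28, 5.56 and 5.73 on the CtBP1 arrays and 5.13 and 5.35 on the CtBP2 arrays. Its group means had the order of those of AURKB, scramble lowest and CtBP1 highest. Its knockdown groups overlapped, and scramble control 2 lay among the CtBP1 arrays and above both CtBP2 arrays. BIRC5 read 3.88 and 5.41 on scramble controls 1 and 2, 5.27, 5.0 and 5.19 on the CtBP1 arrays and 5.45 and 5.63 on the CtBP2 arrays. Its CtBP1 arrays lay below scramble control 2 and its CtBP2 arrays above it. A dimmer BIRC5 cluster, with a mean of 2.07, went the other way on the CtBP2 arrays, by -0.31 against scramble. That cluster was also 0.50 higher on scramble control 1 than on scramble control 2. The difference of INCENP from scramble on the CtBP2 arrays, 0.09 ± 0.28, turned to -0.12 after quantile normalization. CDCA8 differed by 0.04 ± 0.86 between the knockdown groups.

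Among the spindle checkpoint genes, MAD2L1 and BUB3 separated the groups most clearly. MAD2L1, whose product blocks CDC20 at unattached kinetochores, read 4.09 and 4.88 on scramble controls 1 and 2, 5.12, 5.40 and 5.15 on the CtBP1 arrays and 5.98 and 5.44 on the CtBP2 arrays. The 3 groups did not overlap, with scramble lowest, the CtBP1 arrays in the middle and the CtBP2 arrays highest, at 0.74 ± 0.28 and 1.23 ± 0.31 against scramble (adjusted p = 0.734 and 0.355). BUB3, which brings BUB1 to the kinetochore, read 6.12 and 6.86 on scramble controls 1 and 2, 6.74, 6.77 and 6.94 on the CtBP1 arrays and 7.39 and 7.61 on the CtBP2 arrays. Its CtBP2 arrays lay above all others, 1.01 ± 0.25 above scramble (adjusted p = 0.354) and 0.68 ± 0.23 above the CtBP1 arrays (adjusted p = 0.531), while its CtBP1 arrays lay on both sides of scramble control 2. BUB1, the kinase it recruits, did not follow, with -0.01 ± 0.93 between the knockdown groups, and TTK, the kinase that starts checkpoint signalling, had 0.64 ± 0.74.

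At the kinetochore and centromere, the widest of the direct differences was that of NUF2, and its groups overlapped. NUF2, a subunit of the NDC80 complex that grips microtubules, read 3.86 and 5.95 on scramble controls 1 and 2, 5.50, 4.72 and 5.60 on the CtBP1 arrays and 5.58 and 5.93 on the CtBP2 arrays. All 5 knockdown arrays lay below scramble control 2, and the direct difference was 0.48 ± 0.62. SPC24, of the same complex, read 3.10 and 5.82 on scramble controls 1 and 2, 5.70, 5.86 and 5.86 on the CtBP1 arrays and 5.82 and 6.03 on the CtBP2 arrays, a pattern in which scramble control 1 alone stood off. The other 2 subunits, NDC80 and SPC25, differed by 0.06 ± 0.57 and -0.07 ± 0.56 between the knockdown groups.

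CENPA, the histone variant that marks centromeres, read 4.62 and 6.0 on scramble controls 1 and 2, 6.02, 6.0 and 6.29 on the CtBP1 arrays and 6.03 and 6.08 on the CtBP2 arrays. Its 5 knockdown arrays reached from 6.0 to 6.29, with the lowest tied with scramble control 2, and its difference from scramble was 0.79 ± 0.38 on the CtBP1 arrays. CENPF, a large protein of the outer kinetochore, read 4.04 and 7.04 on scramble controls 1 and 2, 6.53, 6.39 and 6.65 on the CtBP1 arrays and 6.82 and 7.11 on the CtBP2 arrays. The CtBP1 arrays lay between the controls and below both CtBP2 arrays (0.44 ± 0.80), and without scramble control 1 they were lower by -0.52 ± 0.17 (adjusted p = 0.596). CENPE, the kinesin of chromosome congression, had the widest range of any member within the CtBP1 arrays, 1.03, and a direct difference of 0.08 ± 0.68.

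All 8 spindle motor and microtubule genes had every CtBP1 array between the controls, where 10.9% of all genes did. NUSAP1, which bundles spindle microtubules, read 6.41 and 8.33 on scramble controls 1 and 2, 7.86, 7.71 and 7.93 on the CtBP1 arrays and 7.96 and 8.10 on the CtBP2 arrays. Every knockdown array lay below scramble control 2, and without scramble control 1 the CtBP1 difference was -0.49 ± 0.14 (adjusted p = 0.535). KIF18A, the kinesin that damps chromosome movement, read 3.29 and 6.20 on scramble controls 1 and 2, 5.99, 5.37 and 6.13 on the CtBP1 arrays and 6.57 and 6.41 on the CtBP2 arrays. KIF2C, the microtubule-depolymerising kinesin of the centromere, read 4.10 and 5.90 on scramble controls 1 and 2, 5.22, 5.56 and 5.56 on the CtBP1 arrays and 6.53 and 6.25 on the CtBP2 arrays. For both of these kinesins the CtBP2 arrays lay above all others and the CtBP1 arrays below scramble control 2, and KIF2C had the largest direct difference of the members, 0.94 ± 0.50, with an interval of -0.28 to 2.16 and an adjusted p of 0.786, on values tied between CtBP1 arrays 2 and 3.

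The other 5 genes of this role are KIF11, the motor that separates the poles, TPX2, which activates AURKA on the spindle, HMMR and ASPM, which act at the poles, and DLGAP5, which stabilises kinetochore fibres. Their direct differences were 0.33 ± 0.58, 0.31 ± 0.60, 0.50 ± 0.90, 0.26 ± 0.78 and -0.25 ± 0.82. DLGAP5 was the single gene of the role with a value below 0. Without scramble control 1 all 8 genes were lower on the CtBP1 arrays, by a median of -0.50, and 6 of 8 on the CtBP2 arrays, by a median of -0.25, and 0 passed with limma.

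For the central spindle and cytokinesis, all 5 measured genes likewise had every CtBP1 array between the controls. ANLN, which anchors the contractile ring, read 5.34 and 8.60 on scramble controls 1 and 2, 8.17, 7.38 and 7.83 on the CtBP1 arrays and 8.48 and 8.86 on the CtBP2 arrays. The CtBP2 arrays lay above the CtBP1 arrays (0.87 ± 0.89) and on both sides of scramble control 2. PRC1, which bundles the microtubules of the central spindle, read 4.40 and 7.27 on scramble controls 1 and 2, 6.99, 6.87 and 7.21 on the CtBP1 arrays and 6.96 and 7.45 on the CtBP2 arrays. Its knockdown groups overlapped (0.18 ± 0.78). KIF23 and RACGAP1, the partners of the centralspindlin complex, and ECT2, the exchange factor it recruits to activate RhoA, had direct differences of -0.03 ± 0.60, 0.17 ± 0.39 and 0.25 ± 0.55.

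CDC20, UBE2C and ESPL1 act with or after the anaphase-promoting complex. CDC20, its mitotic coactivator, read 6.71 and 8.88 on scramble controls 1 and 2, 8.43, 8.07 and 8.49 on the CtBP1 arrays and 8.65 and 8.39 on the CtBP2 arrays. All 5 knockdown arrays lay below scramble control 2, and the groups overlapped with each other (0.19 ± 0.59). UBE2C, a ubiquitin-conjugating enzyme of the complex, read 4.65 and 5.31 on scramble controls 1 and 2, 5.05, 5.54 and 5.59 on the CtBP1 arrays and 5.79 and 5.83 on the CtBP2 arrays. Its CtBP2 arrays lay above all others, at 0.84 ± 0.28 against scramble (adjusted p = 0.431), and RefSeq names 5 pseudogenes after it, so copies may share its probes. ESPL1, the protease separase that opens cohesin, read 3.68 and 5.24 on scramble controls 1 and 2, 5.23, 5.23 and 5.75 on the CtBP1 arrays and 5.43 and 5.23 on the CtBP2 arrays. Of its arrays, CtBP1 arrays 1 and 2 and CtBP2 array 2 were tied, and the direct difference was -0.07 ± 0.45.

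TOP2A and MKI67 serve as markers of dividing cells. TOP2A read 6.45 and 8.52 on scramble controls 1 and 2, 8.07, 7.88 and 8.07 on the CtBP1 arrays and 8.41 and 8.71 on the CtBP2 arrays. Its CtBP1 arrays lay below scramble control 2 and below both CtBP2 arrays (0.56 ± 0.56), and without scramble control 1 they were lower by -0.51 ± 0.17 (adjusted p = 0.591). MKI67, the gene of the Ki-67 antigen that coats mitotic chromosomes, read 5.04 and 8.18 on scramble controls 1 and 2, 8.47, 7.71 and 7.95 on the CtBP1 arrays and 7.71 and 8.06 on the CtBP2 arrays. Its knockdown groups overlapped, with a direct difference of -0.16 ± 0.86. Scramble control 2 lay among the CtBP1 arrays and above both CtBP2 arrays.

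Each knockdown array was also set against scramble control 2, the control that did not stand apart over all genes. For the members it was itself high, the highest of the 7 arrays for 16 (34%), against 12.9% of all genes. The members' median was -0.23, -0.40 and -0.22 on CtBP1 arrays 1, 2 and 3, with 39, 37 and 32 of 47 genes below that control. It was -0.14 on CtBP2 array 1 and 0.02 on CtBP2 array 2, with 27 and 22 genes below. CtBP1 array 2 was the lowest of its group for 31 members (66%), where it was for 39.9% of all genes. Within groups the members' median range was 0.43 over the CtBP1 arrays and 0.20 over the CtBP2 arrays, a spread of single genes. DNA replication genes read otherwise on the CtBP2 arrays, with medians of 0.33 and 0.23 above scramble control 2, and stood at -0.20, -0.10 and 0.00 on the CtBP1 arrays.

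**Figure D5:**
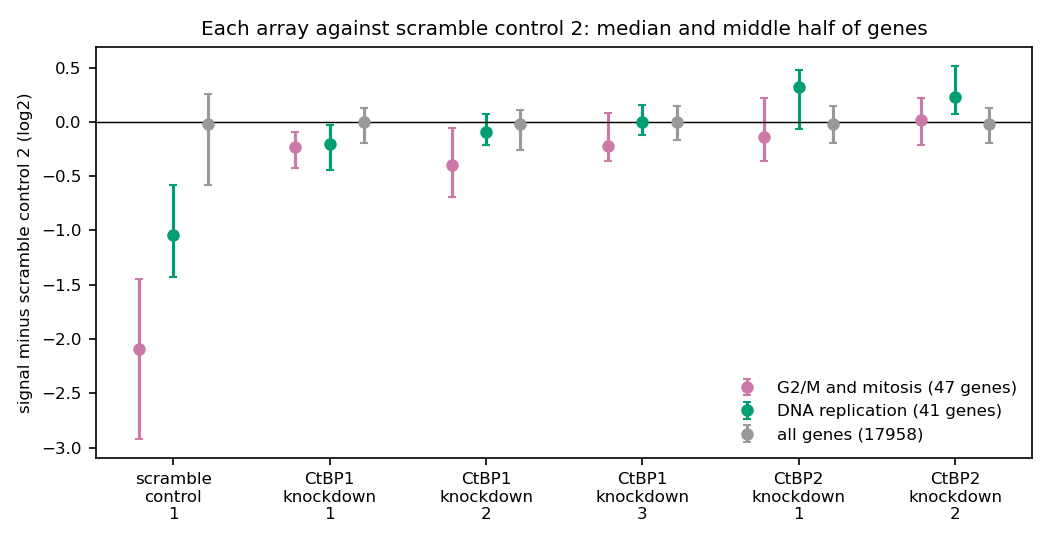
Signal minus scramble control 2 (vertical axis, log2) on each of the other 6 arrays, as the median (point) and interquartile range (bar) of 47 G2/M and mitosis genes, 41 DNA replication genes and all 17958 genes. On scramble control 1 the mitosis genes lie at -2.09 and the replication genes at -1.05, while on the knockdown arrays the mitosis medians lie between -0.40 and 0.02.

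Other genes of the same pathways were read from lists that do not share genes with the 50. Of 61 other mitosis genes 55 were measured, and 0 were called in any of the 3 comparisons with all arrays. Their medians were 0.59 on the CtBP1 arrays and 0.81 on the CtBP2 arrays against scramble. Of them 49 and 51 were above 0, where 49.2% and 47.3% of all genes were. Directly the median was 0.19, with 38 higher on the CtBP2 arrays, where 46.8% of all genes were. Scramble control 1 was the lowest array for 51 of the 55 (92.7%), against 32.3% of all genes. Without scramble control 1 the medians of the 55 against scramble were -0.14 on the CtBP1 arrays and -0.05 on the CtBP2 arrays. GTSE1, a microtubule-binding protein of G2, read 3.51 and 5.27 on scramble controls 1 and 2, 5.26, 5.24 and 5.75 on the CtBP1 arrays and 5.34 and 5.28 on the CtBP2 arrays, low on scramble control 1 alone. CENPW, a histone-fold subunit of the inner kinetochore, read 2.43 and 3.24 on scramble controls 1 and 2, 3.37, 3.24 and 3.41 on the CtBP1 arrays and 4.21 and 4.04 on the CtBP2 arrays. Its CtBP2 arrays lay above the rest, 1.29 ± 0.27 above scramble and 0.79 ± 0.24 above the CtBP1 arrays (adjusted p = 0.287 and 0.493).

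The MuvB, pocket protein, E2F and NF-Y genes encode the regulators of G2/M transcription. The median difference between scramble controls 1 and 2 was -0.54 for 20 measured of 21 such genes, against -2.09 for the members, and 0 were called in any comparison with all arrays. E2F7, a repressor E2F, read 5.60 and 6.32 on scramble controls 1 and 2, 5.98, 6.10 and 5.99 on the CtBP1 arrays and 6.71 and 6.95 on the CtBP2 arrays, with the CtBP2 arrays above all others (0.80 ± 0.22 directly, adjusted p = 0.456). LIN37, a MuvB subunit, read 5.50 and 6.03 on scramble controls 1 and 2, 5.89, 6.02 and 5.94 on the CtBP1 arrays and 5.43 and 5.22 on the CtBP2 arrays, with the CtBP2 arrays below all others (-0.62 ± 0.18, adjusted p = 0.465). NFYB, a subunit of NF-Y, had 0.62 ± 0.18. The 12 cohesin genes had medians of 0.15 and 0.21 against scramble and of 0.10 directly, with 0 called. Without scramble control 1 the medians against scramble were -0.31 on the CtBP1 arrays and -0.20 on the CtBP2 arrays, with 11 and 9 genes below 0.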

How the data were processed

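Expression was measured on 7 arrays, 1 for each clone. The authors deposited log2 signals by transcript cluster. The submitters' processing notes name RMA and Affymetrix Expression Console without a version. RMA corrects background, equalises probe distributions and summarises probes, which limits differences in total signal between arrays. The genome build is not given in the sources used here. For RNA extraction the labels give a silica column and the design text gives TRIzol, and the source names number the line differently from array to array while the cell line field gives SKOV3 throughout.

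Of 33297 transcript clusters, 19181 had exactly 1 symbol, which gave 17958 genes. Array data hold no read depth, so the number of arrays limits the precision. A model with 3 group means was fitted to all genes and arrays with limma 3.58.1 (lmFit, eBayes) in R 4.3.3, and two-sided p-values were adjusted by Benjamini-Hochberg over all genes in each comparison, with a threshold of 0.05. Tables and figures were made with Python 3.11.15, pandas 2.3.3 and matplotlib 3.10.9. The members and lists were chosen with earlier results of these data known. Values on every array are given for the brightest member of each role, the member with the smallest p in each comparison, and FOXM1, MYBL2, CCNB1, CDK1, PLK1, AURKA, AURKB, TOP2A and MKI67. From the other lists up to 4 genes with the smallest p in a comparison could be named. RNU4-1 was named after its value was seen.

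On simulated data, 50 genes drawn at random from all 17958 were raised by 2 log2 units. The fit recovered 70% for the CtBP1 arrays against scramble, 64% for the CtBP2 arrays against scramble and 52% directly. At 1 log2 unit it recovered 0% in each. The noise was normal, with 1 pooled spread for each gene. In the direct comparison the members' median SE was 0.58, against 0.19 over all genes, so these rates need not hold for the members. Of the members 8 (17%) held an identical value on several arrays, where 40% of all genes did. Alternatives were quantile normalization, median centring, a filter on dim genes, the mean of a gene's clusters, robust eBayes, eBayes with a mean-variance trend, array weights, a fit on the compared groups alone, a replicate block, and the omission of each array in turn.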

Additional observations from a re-analysis of the deposited data

How the results depend on the processing

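In both comparisons with scramble, leaving out a scramble array gave the lowest and the highest median. Leaving out 1 array at a time, the members called against scramble ranged from 0 to 38 on the CtBP1 arrays and from 0 to 43 on the CtBP2 arrays, the higher values without scramble control 2. The median member difference ranged from -0.25 to 1.68 and from -0.07 to 1.97, and members with groups that did not overlap from 3 to 46 and from 17 to 47, the highest without scramble control 2, where 71.4% and 87.6% of all genes did not overlap either. In the direct comparison the median ranged from 0.13 to 0.29. Members with CtBP1 arrays apart from scramble numbered 5 after quantile normalization and 1 after median centring, against 3 on the deposited values. On the deposited values 6.76% of all genes had the CtBP1 arrays above both controls and 7.59% below both. The shares of all genes after either step are not given here, so these counts are not read as a result about the members. Median centring moved the median of all genes in the CtBP2 comparison from -0.02 to 0.13, and the members' median there was 1.23. Array weights raised the direct count of calls from 0 to 1 of 47 members, with 272 of 17958 genes called.

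With the replicate number as a block, 0 members were called in any comparison, and the medians were 0.70, 1.08 and 0.28 for the CtBP1 arrays against scramble, the CtBP2 arrays against scramble and directly. The block changed no call of a member. Only the CtBP1 arrays have a number 3, so the block takes CtBP1 array 3 out of the 2 comparisons with those arrays. Their medians equal those found with that array left out, so the block is no separate check. Deviations from the group mean had correlations from -0.35 to 0.10 between samples with the same number. In a group of 2 arrays these deviations are equal and opposite, so the correlations cannot show whether the numbers mark pairs. The main fit did not take the numbers as pairs. The block turned the direct difference of FOXM1 to 0.00045, of CKS1B to -0.0166, of CENPA to 0.045 and of ESPL1 to 0.10. For FOXM1, CENPA and ESPL1 these are also the values without CtBP1 array 3.

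Among the members given array by array, 36 results changed sign, or went to 0 in the case of AURKB, when 1 array was left out. For the CtBP1 arrays against scramble, the lowest value came without scramble control 1 and the highest without scramble control 2, at ANLN -0.80 to 2.45, AURKA -0.30 to 3.55, BIRC5 -0.25 to 1.28, BUB3 -0.039 to 0.69, CCNB1 -0.37 to 2.53, CDC20 -0.55 to 1.61, CENPF -0.52 to 2.49, FOXM1 -0.15 to 2.83, INCENP -0.00045 to 0.74, KIF18A -0.37 to 2.54, KIF2C -0.45 to 1.35, MKI67 -0.14 to 3.01, NUF2 -0.68 to 1.41, NUSAP1 -0.49 to 1.42, PLK1 -0.0018 to 3.19, PRC1 -0.25 to 2.62, SPC24 -0.013 to 2.71 and TOP2A -0.51 to 1.56. For the CtBP2 arrays against scramble the same omissions gave AURKA -0.17 to 3.68, AURKB 0 to 1.25, CDC20 -0.36 to 1.80, CENPF -0.076 to 2.93, FOXM1 -0.26 to 2.72, INCENP -0.28 to 0.46, MKI67 -0.30 to 2.85, NUF2 -0.20 to 1.89, NUSAP1 -0.30 to 1.62, PLK1 -0.18 to 3.01 and PRC1 -0.068 to 2.80. Directly, where single knockdown arrays set the range, the values were AURKA -0.022 to 0.27, CENPA -0.10 to 0.045, CKS1B -0.19 to 0.24, ESPL1 -0.17 to 0.10, FOXM1 -0.22 to 0.00045, MKI67 -0.33 to 0.055 and PRC1 -0.064 to 0.42. Quantile normalization turned INCENP on the CtBP2 arrays against scramble to -0.12, and turned the direct differences of AURKA to -0.0070, CKS1B to -0.23 and CDC20 to -0.016. The mean of its clusters turned the direct difference of CKS1B to -0.027, and median centring turned that of CENPA to 0.0077. The cause of these changes was not tested. A change of 1 log2 unit was not recovered on simulated data with this number of arrays, and detection against background was not analysed here, so a member's miss of the threshold does not show that it was the same in both groups.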

Other observations

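A few genes of the neighbouring lists, named for their small p in a comparison, read higher on both CtBP2 arrays than on every other array. ANAPC11, the catalytic RING subunit of the anaphase-promoting complex, read 3.18 and 3.52 on scramble controls 1 and 2, 3.35, 3.58 and 3.43 on the CtBP1 arrays and 4.49 and 4.64 on the CtBP2 arrays, 1.11 ± 0.15 above the CtBP1 arrays (limma, adjusted p = 0.173, higher on 2 of 2 arrays than on all 5 others). ANAPC16, of the same complex, read 3.94 and 5.19 on scramble controls 1 and 2, 5.44, 5.15 and 5.48 on the CtBP1 arrays and 6.20 and 6.20 on the CtBP2 arrays. The last pair is equal as rounded here. ANAPC16 was 0.85 ± 0.36 above the CtBP1 arrays (limma, adjusted p = 0.67). Of 15 measured genes of that complex, 11 were higher on the CtBP2 than on the CtBP1 arrays, where 46.8% of all genes were. The median difference of the 15 was 0.36, and 0 were called.

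CCNE1, the cyclin of S-phase entry, read 4.11 and 4.23 on scramble controls 1 and 2, 4.36, 4.45 and 4.45 on the CtBP1 arrays and 5.89 and 5.23 on the CtBP2 arrays, 1.14 ± 0.20 above the CtBP1 arrays (adjusted p = 0.245). RPA2, a subunit of the single-stranded DNA binding protein of replication, read 3.05 and 3.37 on scramble controls 1 and 2, 3.15, 3.27 and 3.37 on the CtBP1 arrays and 4.08 and 4.01 on the CtBP2 arrays, 0.79 ± 0.14 above them (adjusted p = 0.256). Of 41 measured DNA replication genes, 33 were higher on the CtBP2 arrays than on the CtBP1 arrays, where 46.8% of all genes were. The median difference of the 41 was 0.36, with 0 called. Both CtBP2 arrays lay above all 3 CtBP1 arrays for 22 of them, a share to be read against 15.8% of all genes.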
